A study of Mus musculus with 2 samples.

Results

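The 9 genes described here carry follicular steroid synthesis and its control by gonadotropins. They are Star, Cyp11a1, Hsd3b1, Hsd17b1, Cyp19a1 and Hsd11b1, which encode a cholesterol carrier and 5 steroid-converting enzymes, the transcription factor gene Nr5a1, and the receptor genes Fshr and Lhcgr. They were taken by name from 37074 gene names on the array, and all 14 of their probes were well above background on both arrays, with no saturated spot. Unfertilised oocytes came from Mul1-/- and Mul1+/+ mice, labelled knockout and wild type, both of strain C57BL/6, and 123 knockout and 213 wild-type oocytes gave 1 array each. Mul1 encodes a ubiquitin ligase of the mitochondrial outer membrane, and the comparison asks which transcripts differ between the genotypes. The part of Mul1 that was deleted, the age of the mice and any hormone treatment before collection are not given in the sources used here. With 1 array per genotype there is no replicate, so no test was made and every difference describes this pair of arrays.

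In the ovarian follicle, steroids are made by the somatic cells around the oocyte, not chiefly by the oocyte itself. Star moves cholesterol to the inner mitochondrial membrane, where the side-chain cleavage enzyme Cyp11a1 turns it into pregnenolone, and 3-beta-hydroxysteroid dehydrogenases such as Hsd3b1 turn that into progesterone. Theca cells supply androgens, which granulosa cells convert to oestradiol through aromatase, encoded by Cyp19a1, and the 17-beta-hydroxysteroid dehydrogenase Hsd17b1. Follicle-stimulating hormone acts on granulosa cells through Fshr and raises aromatase, whereas luteinising hormone acts through Lhcgr and drives ovulation and the switch to progesterone synthesis. Nr5a1, also called SF-1, binds the promoters of many of these genes.

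Star was lower in the knockout, close to 2-fold, and Cyp11a1 was lower by a smaller amount at both of its probes. Cyp19a1 and Hsd17b1, which act in oestradiol synthesis, lay on the other side, 1.55-fold and 1.38-fold higher in the knockout, whereas Hsd17b7, whose enzyme can make oestradiol too, was lower at -0.65 on the log2 scale. Hsd11b1 was 1.26-fold and Fshr 1.27-fold higher. Hsd3b1, Lhcgr and the bright probe of Nr5a1 differed by 0.24 or less on the log2 scale. None of the 14 probes was at least 2-fold higher, where 2.72% of the 35255 probes measured on both arrays were, and none was at least 2-fold lower, where 1.86% were. At 1.5-fold, 2 probes were higher, against 7.36% of all probes, and 1 was lower, against 6.40%. Fold changes and log2 differences below set the knockout against the wild type after each array was set to the 75th percentile of its probes, and the error beside each is the signal error that the scanner software gave, carried to the log2 difference. That error covers the spot, not the animals or the amplification, and the software sets it to about 10% of a bright signal.

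The array reads each transcript with probes of 60 bases, and the sequences of several probes are shown because the values below are values of these stretches and not of whole genes. The Cyp11a1 and Lhcgr probes shown here join sequence from either side of an intron, of 411 and 3564 bases in the file's coordinates, so they pair over their full length only with spliced RNA. The other sequences shown whole are a probe of Hsd3b1 and the Fshr probe, and each of these 4 has a reading frame with no stop codon. Positions are on mouse build mm9 as in the scanner files, and whether each lies in coding or untranslated exon sequence was not analysed here.
Cyp11a1, NM_019779, chr9:57874074-57874544, plus strand: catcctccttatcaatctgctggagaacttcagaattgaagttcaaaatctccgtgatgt
Hsd3b1, NM_008293, chr3:98657021-98657080, minus strand: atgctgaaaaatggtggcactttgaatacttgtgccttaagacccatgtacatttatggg
Fshr, NM_013523, chr17:89384673-89384732, minus strand: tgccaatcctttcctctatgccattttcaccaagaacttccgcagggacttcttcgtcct
Lhcgr, XM_006523727, chr17:89149503-89153126, minus strand: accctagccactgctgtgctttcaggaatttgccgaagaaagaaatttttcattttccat

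The Star and Cyp19a1 probes hold a stop codon in every forward reading frame, and 30 bases of each are shown since the largest differences at well measured probes were read there. The bright probe of Nr5a1 ends beyond a polyadenylation signal, AATAAA, given in capitals.
Star, NM_011485, bases 31 to 60 of the probe at chr8:26924735-26924794, plus strand: ctgttccaggatttggagatattacacttt
Cyp19a1, NM_007810, bases 1 to 30 of the probe at chr9:54013778-54013837, minus strand: aagtagtattagcctgagtaaaatatagct
Nr5a1, NM_139051, bases 31 to 60 of the probe at chr2:38548180-38548239, minus strand: gccctgaAATAAAttttgcaattagtttcc

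**Figure D1:**
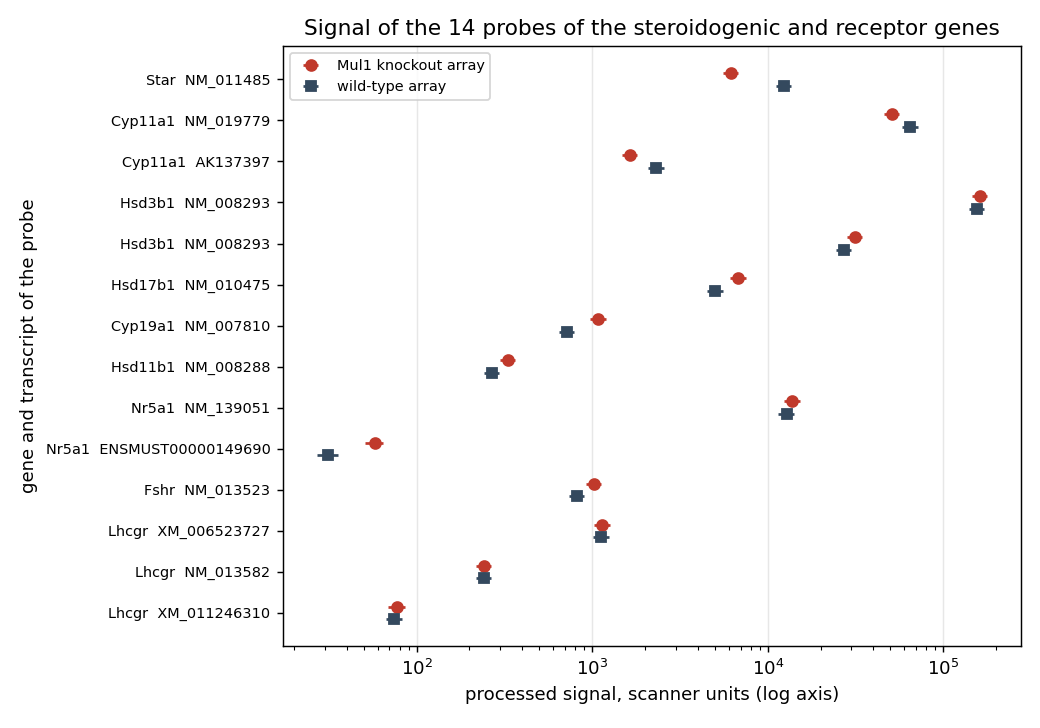
Processed signal of each of the 14 probes on the knockout array (circles) and the wild-type array (squares), on a logarithmic axis, with bars for the scanner's signal error. Star and both Cyp11a1 probes lie lower on the knockout array, and the 3 Lhcgr probes nearly coincide on the arrays.

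The Mul1 probe for NM_026689 read 1074 on the knockout array and 3353 on the wild-type array, a difference of -1.61. The other Mul1 probe, for ENSMUST00000105815, was dim, with 23.1 on the knockout array and 19.3 on the wild-type array, a difference of 0.29. Where either lies relative to the deleted part is not known here. The lowest signal called well above background was 15.8 on the knockout array and 12.9 on the wild-type array, and that call was reached by 64.5% of the 56600 gene probes on the knockout array and 66.0% on the wild-type array. Repeat spots of 1 probe, available for 296 probes with 10 spots, gave differences whose SD had a median of 0.04 and reached 0.20 at most. Spots flagged as outliers on either array were left out first, which can narrow this spread. Each of the 14 probes described here was printed at 1 spot.

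Star and Cyp11a1, the genes of cholesterol delivery and side-chain cleavage, were read lower in the knockout. The Star probe gave a signal of 6190 ± 619 on the knockout array and 12352 ± 1240 on the wild-type array, a difference of -0.96 ± 0.20 or 1.95-fold lower. The knockout signal was 391 times the lowest signal well above background on its array, so the value is not near the detection limit. Among all probes measured, 2.08% lay further down than Star. Spread narrows with brightness, and among the 4303 probes whose mean level was within 1 log2 unit of Star's, 0.651% lay further down.

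Cyp11a1, the first and committing enzyme, was read by a pair of probes that differed in brightness and shared a direction. The probe for NM_019779 gave 50745 ± 5070 on the knockout array and 64970 ± 6500 on the wild-type array, a difference of -0.32 ± 0.20, which was -0.18, within its error of 0, on the spike-in scale, in which the arrays are set equal at control RNA added to each sample. The dimmer probe was designed on AK137397, a clone sequence that the file names Cyp11a1, at chr9:57854517-57854576. It gave 1637 ± 164 on the knockout array and 2319 ± 232 on the wild-type array, a difference of -0.47 ± 0.20, or -0.33 on the spike-in scale. Of probes of like brightness, 3.10% lay below the first and 4.68% below the second. Star minus the NM_019779 probe was -0.64 ± 0.29 in their differences, a quantity that no constant scaling of an array changes.

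The next enzyme, Hsd3b1, did not go with them. Its probe at chr3:98656330-98656389 gave 161348 ± 16100 on the knockout array and 155390 ± 15500 on the wild-type array, a difference of 0.09 ± 0.20. Its other probe gave 31381 ± 3140 on the knockout array and 27178 ± 2720 on the wild-type array, a difference of 0.24 ± 0.20. The first is within its error of 0 and the second just outside it. On the spike-in scale they were at 0.23 and 0.38, both beyond their error. Among probes of like brightness, 9.09% lay above the first and 5.92% above the second. Star minus this second probe was -1.20 ± 0.29 in their differences.

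Hsd3b1 sits in a cluster of related genes on chromosome 3, and its relatives did not share one direction. Hsd3b6, a close relative in the same cluster, gave 5454 on the knockout array and 4748 on the wild-type array, a difference of 0.23. For Hsd3b2 the probe for ENSMUST00000107022 gave 8941 on the knockout array and 13261 on the wild-type array, a difference of -0.54, while neither probe for its RefSeq transcript NM_153193 was well above background on both arrays. Hsd3b3, Hsd3b4 and Hsd3b5 were not well above background on either array. Among the probes of Hsd3b2 to Hsd3b7, the best ungapped match to a Hsd3b1 probe was 24 of 60 bases, so no probe sequence is shared. Whether a transcript of one gene also binds the probe of another was not tested.

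Cyp19a1 and Hsd17b1, which act in oestradiol synthesis, were both read higher in the knockout. Cyp19a1, the aromatase gene, gave 1085 ± 109 on the knockout array and 715 ± 71.5 on the wild-type array, a difference of 0.63 ± 0.20. Hsd17b1, whose enzyme turns oestrone into oestradiol, was read at chr11:100941537-100941596 and gave 6803 ± 680 on the knockout array and 5037 ± 504 on the wild-type array, a difference of 0.47 ± 0.20. Of probes of like brightness, 3.68% lay above Cyp19a1 and 2.21% above Hsd17b1. Star and Cyp19a1 lay furthest apart among the gene means. Star minus Cyp19a1 was -1.60 ± 0.29 in their differences, and the NM_019779 probe of Cyp11a1 minus Cyp19a1 was -0.96 ± 0.29.

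Hsd11b1 does not build sex steroids but regenerates active glucocorticoid from its inactive ketone. Its probe at chr1:195048169-195048228 gave 330 ± 33.2 on the knockout array and 268 ± 27.0 on the wild-type array, a difference of 0.33 ± 0.21, and 16.5% of probes of like brightness lay above it. The opposing enzyme gene Hsd11b2 was dim, with 48 on the knockout array and 36 on the wild-type array, a difference of 0.45. H6pd, which supplies NADPH to the Hsd11b1 enzyme in the endoplasmic reticulum, gave 4925 on the knockout array and 3998 on the wild-type array, a difference of 0.33.

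**Figure D2:**
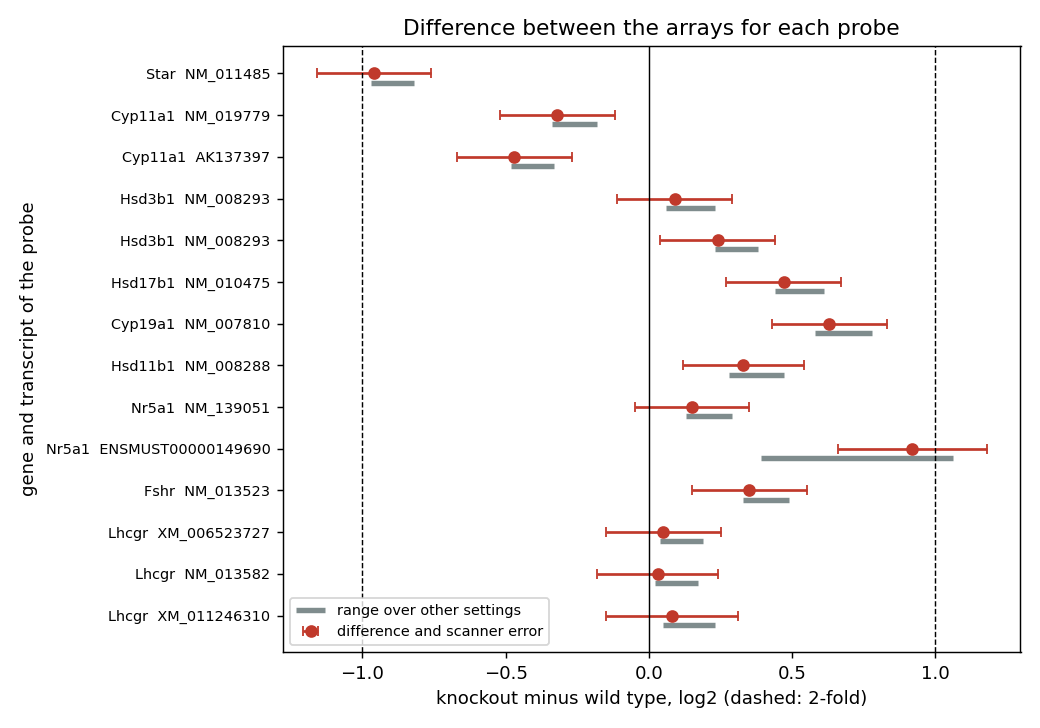
Difference (log2, knockout minus wild type) of each probe (circles) with the scanner error carried to the difference (bars), and the range of the same value over the other processing settings (grey bars). Star is the lowest at -0.96, just inside the 2-fold line, and the dim Nr5a1 probe has the widest range, 0.39 to 1.06.

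Of the gonadotropin receptor genes, Fshr was higher by more than its error and Lhcgr was not. Fshr, the receptor for follicle-stimulating hormone, gave 1021 ± 102 on the knockout array and 821 ± 82.1 on the wild-type array, a difference of 0.35 ± 0.20, and 10.5% of probes of like brightness lay above it. Lhcgr, the receptor for luteinising hormone, was read by 3 probes on different transcripts. The probe for XM_006523727 gave 1145 ± 115 on the knockout array and 1129 ± 113 on the wild-type array, a difference of 0.05 ± 0.20. These values overlap well within their errors. The probe for NM_013582, at chr17:89141300-89141359, gave 241 ± 24.4 on the knockout array and 241 ± 24.3 on the wild-type array, a difference of 0.03 ± 0.21. The probe for XM_011246310, at chr17:89115863-89115922, gave 77.5 ± 8.69 on the knockout array and 74.7 ± 8.10 on the wild-type array, a difference of 0.08 ± 0.23. All 3 Lhcgr values were within their errors of 0. On the spike-in scale they ran from 0.17 to 0.23, and Fshr was at 0.49. Fshr and the NM_013582 probe of Lhcgr differed from each other by 0.32 ± 0.29 in their differences, so this pair of arrays barely separates the receptors.

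The probes of Nr5a1 disagreed in size. The bright probe, for NM_139051, gave 13836 ± 1380 on the knockout array and 12797 ± 1280 on the wild-type array, a difference of 0.15 ± 0.20. The dim probe, for ENSMUST00000149690 at chr2:38556959-38557018, gave 57.8 ± 6.77 on the knockout array and 31.2 ± 4.26 on the wild-type array, a difference of 0.92 ± 0.26. That probe lies at 3.66 times the lowest signal well above background on the knockout array and 2.43 times on the wild-type array, and 7.25% of probes as dim lay above it. With normexp background correction its difference was 0.39, and it was 1.06 on the spike-in scale. The probes differed by 0.78 ± 0.33, so the size for the gene as a whole is uncertain.

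Across the set, 11 of 14 probes and 7 of 9 genes were above 0, against 53.3% of all probes and 54.8% of all genes. The median difference of the 14 probes was 0.12 and that of all measured probes 0.02. Probes of a gene share their target, and 4 of the genes supply 9 of the probes, so the probes are not independent. All 3 probes of Star and Cyp11a1 stayed below 0 and the 11 other probes above 0 under each of the 9 other settings that could be applied to them. Among these settings, the filters on dim probes reuse the same differences and could not change a sign. Keeping flagged spots alters only the scaling of these single-spot probes. Besides, 5 of the 14 probes were within their error of 0.

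**Figure D3:**
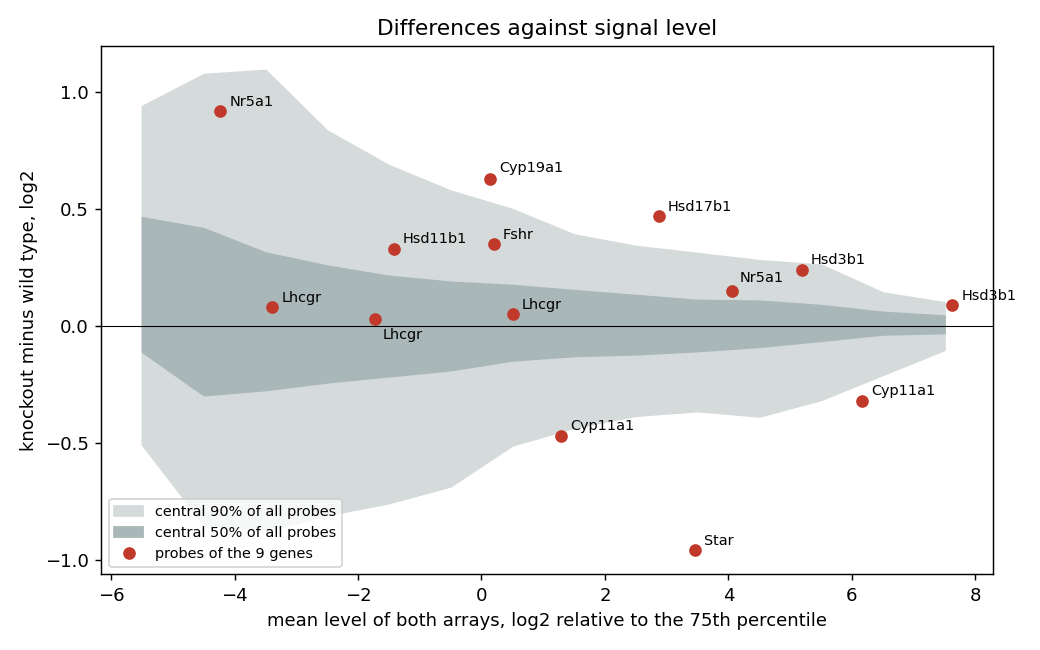
Difference (log2, knockout minus wild type) against the mean level of both arrays relative to the 75th percentile. The bands hold the central 90% and 50% of all probes in each unit of level, and Star, at -0.96, lies below the outer band with the Cyp11a1 probes at its lower edge or just past it, while Cyp19a1 and Hsd17b1 lie above it.

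Genes around the pathway were described from lists of its other steps, by each gene's mean over its probes measured on both arrays. Of all 22894 genes measured in this way, 2.93% lay 2-fold or more above the wild type and 1.37% as far below it, and at 1.5-fold the shares were 7.83% above and 5.19% below, with a median of 0.03. Of 21 genes of cholesterol supply and transport none was at least 2-fold apart, and their median was 0.09. Scarb1, the receptor that takes up cholesterol from high-density lipoprotein, was at -0.14.

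Of the genes for the proteins that supply electrons to steroid enzymes, H6pd, given above, was highest at 0.33. Fdx1, for the ferredoxin that serves Cyp11a1, was at -0.05, and the ferredoxin reductase gene Fdxr gave 74360 on the knockout array and 84208 on the wild-type array, a difference of -0.15. Por, which serves aromatase, was at 0.02. The 5 electron donor genes had a median of -0.05, or 0.09 after spike-in scaling, and none was 2-fold apart.

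Of 23 other steroid enzymes 19 were measured, with a median of 0.02 and none at least 2-fold apart. Akr1c14, a 3-alpha-hydroxysteroid dehydrogenase, was highest at 0.78, with its probes at 0.73 and 0.83. Hsd17b7, an enzyme of cholesterol and oestradiol synthesis, was lowest at -0.65, with 3 probes between -1.06 and -0.38. The theca enzyme gene Cyp17a1, which makes androgens, gave 350 on the knockout array and 300 on the wild-type array, a difference of 0.25. Akr1c18, which inactivates progesterone, gave 96386 on the knockout array and 112600 on the wild-type array, a difference of -0.19.

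Among transcriptional regulators, 18 of 20 were measured and 2 were at least 2-fold lower. Nr4a1, an orphan nuclear receptor gene induced by luteinising hormone in follicle cells, gave 16161 on the knockout array and 44171 on the wild-type array, a difference of -1.42. Its relative Nr4a2 was at -1.05, with probes at -1.14 and -0.96, and was under 2-fold on the spike-in scale. Nr5a2, the relative of Nr5a1 that granulosa cells need for ovulation, gave 8500 on the knockout array and 10997 on the wild-type array, a difference of -0.34. The highest was Nr0b2, a nuclear receptor gene that represses Nr5a2 targets, at 0.35, from a dim signal of 55.6 on the knockout array and 44.6 on the wild-type array. The list's median was -0.13, and 0.01 on the spike-in scale.

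Of 10 steroid receptor genes 9 were measured, with a median of -0.02 that was 0.12 on the spike-in scale. Paqr7, a membrane progestin receptor gene, was highest, with probes at 0.93 and 1.07 whose mean was just short of 2-fold and passed it on the spike-in scale. Of 20 genes of gonadotropin receptor signalling, Irs2, which relays insulin and growth factor signals, was at least 2-fold lower, with 2594 on the knockout array and 5364 on the wild-type array, a difference of -1.02 that was under 2-fold on the spike-in scale. The growth factor gene Igf1 was highest at 0.67, with probes from 0.17 to 1.29, and the list's median was 0.03.

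**Figure D4:**
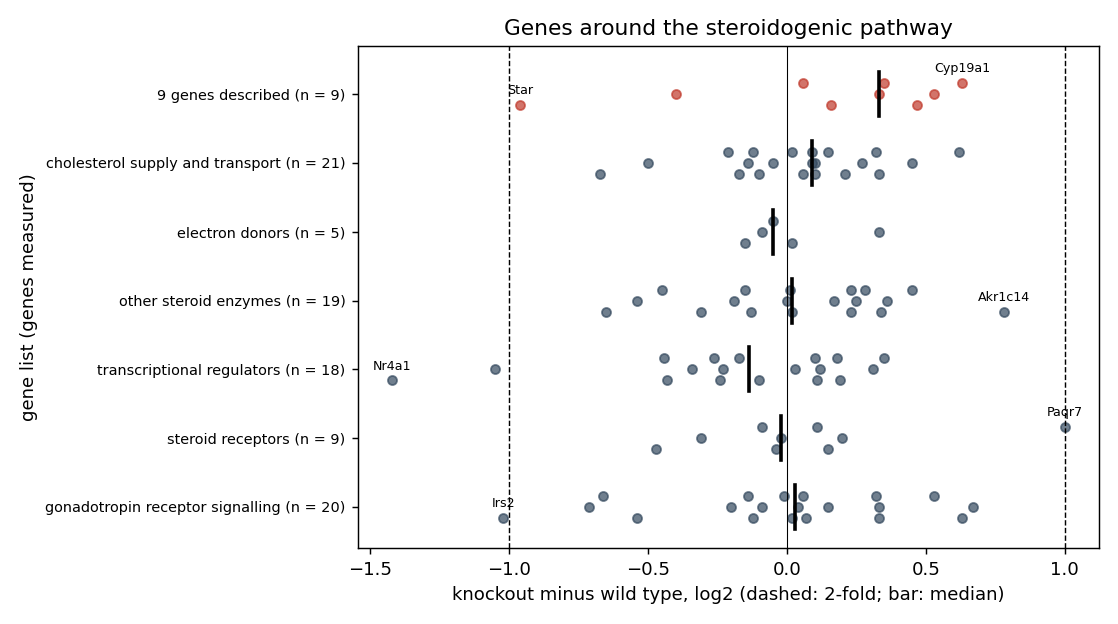
Difference (log2, knockout minus wild type) of each measured gene of the 9 described (red, mean over probes) and of 6 lists around the pathway (dark), with a bar at each median. Star is the lowest of the 9 at -0.96, and Nr4a1, at -1.42, is the lowest gene in the plot.

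The labels give oocytes, and both arrays carried oocyte and follicle transcripts together. Of 12 oocyte markers 11 were measured on both arrays, with differences from -0.21 for Dppa3 to 0.77 for Nlrp5 and a median of 0.16. Their signals summed to 112492 on the knockout array and 121787 on the wild-type array, a ratio of 0.924. Most of these sums came from Gdf9, at -0.11, and Oosp1, at -0.12. All 19 markers of cumulus and mural granulosa cells, the cells in which most of the 9 genes are known to be expressed, were well above background on both arrays. That call was reached by 64.5% of all gene probes on the knockout array and 66.0% on the wild-type array. All luteal, oviduct, myeloid and red cell markers reached it too, so it does not set granulosa cells apart. Their signals summed to 309062 on the knockout array and 282315 on the wild-type array, a ratio of 1.09, and their median difference was 0.14, with 14 above 0 and 5 below. Has2, the hyaluronan synthase gene of cumulus expansion, was highest at 1.16 and Amh lowest at -0.81. Amh was dim, at 35.4 on the knockout array and 63.3 on the wild-type array. In such bulk RNA fewer cells of a type and less RNA per cell cannot be told apart, and the part of these cells in the values of the 9 genes was not tested.

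Markers of luteal cells and of theca and interstitium were set beside these. The 7 luteal markers had a median of -0.17, or -0.02 after spike-in scaling, and signals summing to 307715 on the knockout array and 350458 on the wild-type array, a ratio of 0.878. Most of these sums came from Timp1, at 119327 on the knockout array and 136939 on the wild-type array, and Akr1c18, given above. The prolactin receptor gene Prlr was the lowest luteal marker at -0.71, with probes from -1.03 to -0.46, and Ptgfr the highest at 0.24. The 9 measured markers of theca and interstitium had a median of 0.37, with Gli1, a target of hedgehog signals, at 0.75 and the matrix gene Dcn at -0.94. Gli1 was dim, at 81.8 on the knockout array and 49.7 on the wild-type array. The signals of this list summed to 13372 on the knockout array and 13616 on the wild-type array. Most of these sums came from Acta2, at 11116 on the knockout array and 11707 on the wild-type array. This list is not limited to genes of steroid synthesis, so its median and sums do not describe steroid-making cells alone. The theca hormone gene Insl3 was not analysed here, and Cyp17a1 is given above. The part of either cell group in the lower Star and Cyp11a1 values was not tested.

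Markers of myeloid and red cells had medians further from 0 than any list above. All 12 myeloid markers were above 0, 11 of them at least 2-fold, with a median of 1.82, from Csf1r at 0.60 to S100a9 at 3.27. All 5 red cell markers were at least 2-fold lower, 4 of them on the spike-in scale, from -1.66 for Hba-a2 to -1.03 for Alas2. Oviduct epithelium markers had a median of 0.60, with Ovgp1 at 1.54, Epcam at 1.09 and Upk1b at -0.29. The 4 measured endothelial markers had one of 0.03, with Kdr at 1.13 and Tek at -0.27. Epcam, Upk1b and Tek were dim, at 83.9, 40.4 and 17.9 on the knockout array and 40.2, 50.4 and 22 on the wild-type array. With normexp the oviduct median was 0.39, with 1 marker at least 2-fold higher, and 0 endothelial markers were. The part of these cells in the values of the 9 genes was not tested.

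**Figure D5:**
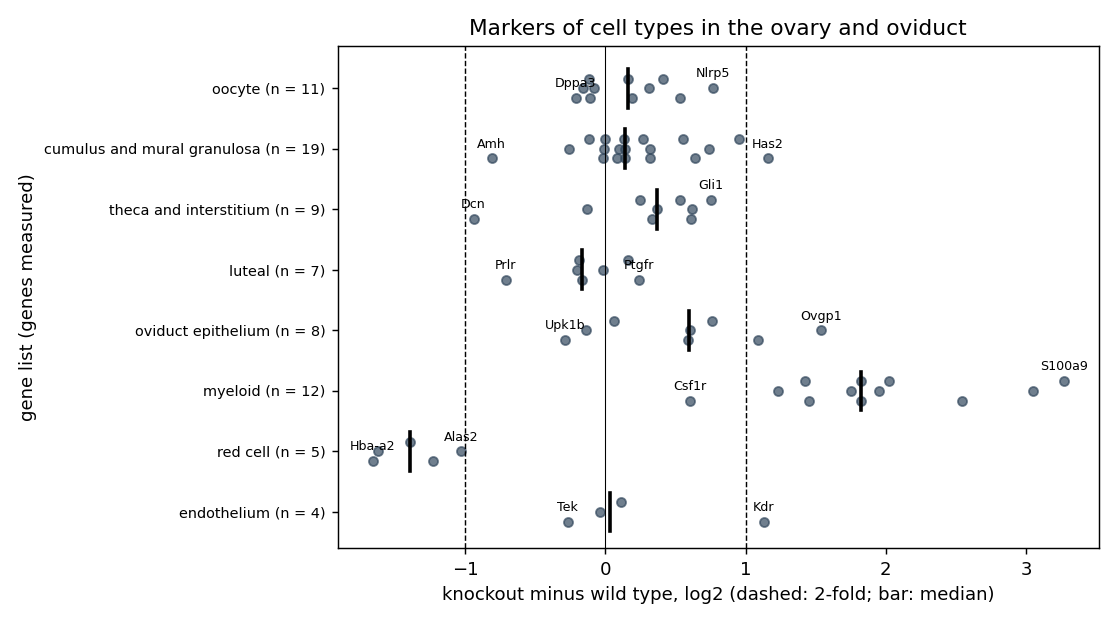
Difference (log2, knockout minus wild type) of each measured marker gene of 8 cell types, with a bar at each median. Granulosa markers centre on 0.14, luteal markers on -0.17, myeloid markers on 1.82 and red cell markers on -1.39.

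Since Nr5a1 is one of the genes, the promoters were searched for the core of its binding site. RefSeq windows of build GRCm38.p6, from 250 bases before to 50 after a start, were at hand for 6 of the genes, as 9 windows, and Star, Hsd17b1 and Nr5a1 are named only. The NR5A site AAGGTCA, on either strand, was in none of the 9 windows and in 4.72% of 32851 windows of all genes. The cAMP element TGACGTCA was in none of the 9 and in 1.79% of all, and the GATA site AGATAA in 1 of the 9, of Hsd3b1, and in 11.2% of all. The shorter AGGTCA, which is contained in AAGGTCA and was added once the promoters had been read, was in 3 of the 9 windows and in 16.3% of all. The windows holding it belong to Cyp11a1, Cyp19a1 and Lhcgr. The windows of the enzyme genes Cyp11a1 and Cyp19a1, which lay on opposite sides between the arrays, are shown, and that of Lhcgr is not. This is outside the planned rule of printing windows with AAGGTCA. The match is in capitals, 28 bases before the start for Cyp11a1 and 81 before it, on the other strand, for Cyp19a1. Such letters are a description of the window and no evidence of binding.
Cyp11a1, chr9:58014852-58014951, plus strand: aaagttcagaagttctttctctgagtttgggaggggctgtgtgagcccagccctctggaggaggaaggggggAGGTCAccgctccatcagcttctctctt
Cyp19a1, chr9:54268176-54268275, minus strand: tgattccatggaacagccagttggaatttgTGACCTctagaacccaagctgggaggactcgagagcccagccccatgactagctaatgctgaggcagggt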

How the data were processed

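Total RNA was amplified and labelled with Cy3 by a low-input kit, per the labels' protocols, and hybridised to 1 single-colour Agilent array of design 074809 per genotype. Per the file headers, the deposited values are 1 linear intensity per spot, processed within an array and not normalised between arrays, from Feature Extraction 10.7.1.1; version 9.5.1.1 is named in the submitters' processing notes. The authors' deposited series-wide intensity table, linear and, from its values, quantile normalised, was an alternative. In Python 3.11.15, unflagged spots were put on the log2 scale, averaged per probe and set relative to the 75th percentile of their array; probes well above background on both arrays were compared. limma 3.58.1 gave normexp (offset 50) and loess (span 0.3). Probes of the 9 genes were chosen by the gene name in the file. Other probes were named through RefSeq GRCm38.p6, with 32994 matched on accession, 10224 on symbol, 520 on a synonym and 12867 left as in the file. Lists were described by counts and medians. Named are all 9 genes and, per list, genes at least 2-fold apart or else the extremes, some of which are not reported here. Scarb1, Fdx1, Por, Hsd11b2, Cyp17a1, Akr1c18, Nr5a2 and the Hsd3b relatives were named after their values were seen, as was the comparison with probes of like brightness chosen. The genes and lists were chosen with earlier results of these data known. No protein sequences were at hand, so the planned choice of probes by translation was replaced by reading frames free of stop codons. Scripts were tested on simulated data.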

Additional observations from a re-analysis of the deposited data

How the results depend on the processing

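The settings compared were other scalings (median of probes well above background, quantile, spike-in controls with 7 probes, loess), normexp, the authors' values, flagged spots kept, and the filter on dim probes dropped or tightened to 4 times the lowest signal well above background. Over the 125 probe values under these settings none changed sign and 124 moved by less than the scanner error. The exception was the dim Nr5a1 probe, at 0.39 with normexp. The filter settings reuse a probe's own difference unchanged, and keeping flagged spots alters only the scaling of these single-spot probes. Such values could move little or not at all, so they add little to these counts. The number of probes at least 2-fold higher was 1 with scaling on spike-in controls, that same probe at 1.06, and 0 under the others; none was at least 2-fold lower under any. Of all probes, 959 were at least 2-fold higher and 654 lower, against 297 and 237 with normexp, 4310 and 2395 unfiltered, 442 and 391 with the tighter filter, and 1330 and 435 with spike-in scaling, which moves the median of all genes from 0.03 to 0.17. The median of the 14 probes ran from 0.10 to 0.26, and was 0.09 over the 13 probes that pass the tighter filter. Star ran from -0.97 to -0.82. All settings reprocess the same 2 arrays. No paired analysis was possible because each genotype has 1 array, and for the same reason no array could be left out. Signal over background limits the dim probes of Nr5a1 and Lhcgr.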
